A study of Mus musculus with 9 samples.

Results

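The inner surface of the mouse colon is covered by mucus that goblet cells make and secrete. Its network is built from the mucin Muc2, a very large protein whose serine- and threonine-rich domains are coated with O-linked sugar chains. Muc2 is folded with the help of the disulfide isomerase Agr2, glycosylated in the Golgi, packed into granules and released together with partner proteins that cross-link, cleave or bind the gel. Described here are 10 genes of this layer, chosen by name with earlier results of these data known. They are the secreted proteins Muc2, Clca1, Fcgbp, Zg16 and Tff3, the folding enzyme Agr2, the goblet cell transcription factor Spdef, and the glycosyltransferases Gcnt3, B3gnt6 and Galnt12. They are 10 of the 54491 rows of the deposited table, and all 10 were among the 17907 genes that passed the filter on low values. B3gnt6 passed only through the libraries outside the high-fat diet group, where it was high.

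RNA came from whole colon tissue of C57BL/6 mice at postnatal day 98, after a study begun at 6 weeks of age with 15 mice in each of 3 groups. The first group ate a high-fat diet and was gavaged, that is dosed by a tube into the stomach, with the gut bacterium Papillibacter cinnamivorans (HFD with the bacterium; replicates 1, 3 and 4). The second ate the high-fat diet (HFD; replicates 1, 2 and 4), and the third was the control (replicates 1, 2 and 3). Gavage is named only for the bacterium group, so effects of the bacterium and of the gavage cannot be told apart. The labels give neither the diet of the control mice, nor the segment of colon, nor whether the 3 libraries of a group are from different mice, so p-values measure the spread between libraries, which may be technical.

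Values are FPKM, fragments scaled by transcript length and library size, and means are given ± SD over n = 3 libraries. Total depth is unknown, and relative depth spanned 1.342-fold. Control replicate 1 stood apart before any test: its 8 smooth muscle markers summed to 6781 FPKM, against 1288 to 3135 FPKM in the other 8 libraries. Its 12 pan-epithelial markers summed to 5736 FPKM, against 9355 and 10627 FPKM in control replicates 2 and 3, while the sums were 5273 to 6553 FPKM in HFD with the bacterium and 5584 to 6364 FPKM in HFD. For the 10 genes, results that rest on this library are given with and without it. In RNA of whole tissue, fewer goblet cells and less of a transcript per goblet cell cannot be told apart. To look for stomach tissue, the stomach mucous cell genes Muc5ac, Gkn1, Gkn2 and Cldn18 were examined and were at 0 in all 9 libraries. Tff1 was at 0.375 FPKM in control replicate 2 and at 0 elsewhere, and Tff2 was at 0.822 FPKM or less in every library. Zg16, Tff3, Agr2, Muc2 and Clca1 ranked 30, 28, 71, 135 and 169 by mean FPKM among the tested genes. These values do not tell colon from small intestine. The Paneth cell genes Defa24 and Defa30 were at 5.35 and 2.65 FPKM in control replicate 2 and at 0 elsewhere.

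Of the 10 genes, 4 had a promoter sequence at hand (RefSeq, GRCm38.p6; 300 bases around the start of the gene, most of them upstream). Those of Muc2, Spdef and Fcgbp are shown because Muc2 and Spdef had the most similar profiles of any pair, whereas Fcgbp differed from HFD in the opposite direction in mice given the bacterium. Capitals mark TTTAT, a core bound by CDX homeodomain factors, GGAT, a core of the kind Spdef binds, and CAGCTG, an E-box of the kind Atoh1 binds, searched on both strands so that ATAAA and ATCC count as matches. The windows are chr7:141690090-141690389 (plus strand) for Muc2, chr17:27728902-27729201 (minus strand) for Spdef and chr7:28070986-28071285 (plus strand) for Fcgbp.
Muc2: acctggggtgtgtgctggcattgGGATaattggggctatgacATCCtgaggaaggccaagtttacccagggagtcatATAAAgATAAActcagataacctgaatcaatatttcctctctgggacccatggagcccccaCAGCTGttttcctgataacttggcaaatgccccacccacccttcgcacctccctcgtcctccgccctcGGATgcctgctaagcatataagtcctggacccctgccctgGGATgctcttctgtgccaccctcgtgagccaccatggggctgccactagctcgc
Spdef: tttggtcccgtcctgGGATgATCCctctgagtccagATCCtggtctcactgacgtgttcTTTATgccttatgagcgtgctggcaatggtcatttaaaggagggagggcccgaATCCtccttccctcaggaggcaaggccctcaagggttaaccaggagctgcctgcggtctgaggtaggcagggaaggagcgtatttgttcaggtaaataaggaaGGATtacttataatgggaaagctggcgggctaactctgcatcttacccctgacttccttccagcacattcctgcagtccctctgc
Fcgbp: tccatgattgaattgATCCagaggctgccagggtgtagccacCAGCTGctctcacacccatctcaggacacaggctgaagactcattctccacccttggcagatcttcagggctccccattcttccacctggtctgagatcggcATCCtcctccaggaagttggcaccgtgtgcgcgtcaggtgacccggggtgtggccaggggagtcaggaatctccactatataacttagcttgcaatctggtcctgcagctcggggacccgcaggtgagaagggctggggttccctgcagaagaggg

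The Muc2 window held the CDX-type core 2 times, at -173 and -167 from the start, and the E-box at -112. Spdef held the CDX-type core once, at -191, and Fcgbp held none but had the E-box at -208. The GGAT core occurred 4 times in Muc2, 5 times in Spdef and 2 times in Fcgbp. Agr2, the other gene with a window, held 1 CDX-type and 2 GGAT matches. These letters are common: of 32851 promoter windows of this length, 40.0% held the CDX-type core, 79.6% GGAT and 16.3% the E-box, so a match describes the sequence and is not evidence of a bound site.

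Differences were tested with limma on log2(FPKM + 1), with p-values adjusted over all tested genes, and genes with an adjusted p below 0.05 count as called. HFD against control asks how the diet group differed from the control, and 6 of the 10 genes were called, with 19.7% of all tested genes called in that comparison. Muc2, Spdef, Gcnt3, B3gnt6 and Galnt12 were lower in HFD (5 genes; background for lower 9.11%) and Clca1 was higher (1 gene; background for higher 10.6%). HFD with the bacterium against HFD asks how the bacterium group differed on the same diet, and 7 of the 10 were called, with a background of 12.1%. There Muc2, Spdef, Gcnt3, B3gnt6 and Galnt12 were higher (5 genes; background 4.54%) and Clca1 and Fcgbp were lower (2 genes; background 7.6%). With TPM scaling 79.0% of all calls in HFD against control were higher in HFD, in place of 53.8%, and 23.6% of those in HFD with the bacterium against HFD were higher, in place of 37.4%. Both comparisons use the same 3 HFD libraries, so they are not independent of each other. Because the 10 genes were chosen with earlier results of these data known, their counts beside the backgrounds are no test of an excess. The median log2 difference of the 10 genes was -0.76 in HFD against control and 0.96 in HFD with the bacterium against HFD, with -0.00107 and -0.0138 over all tested genes.

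**Figure D1:**
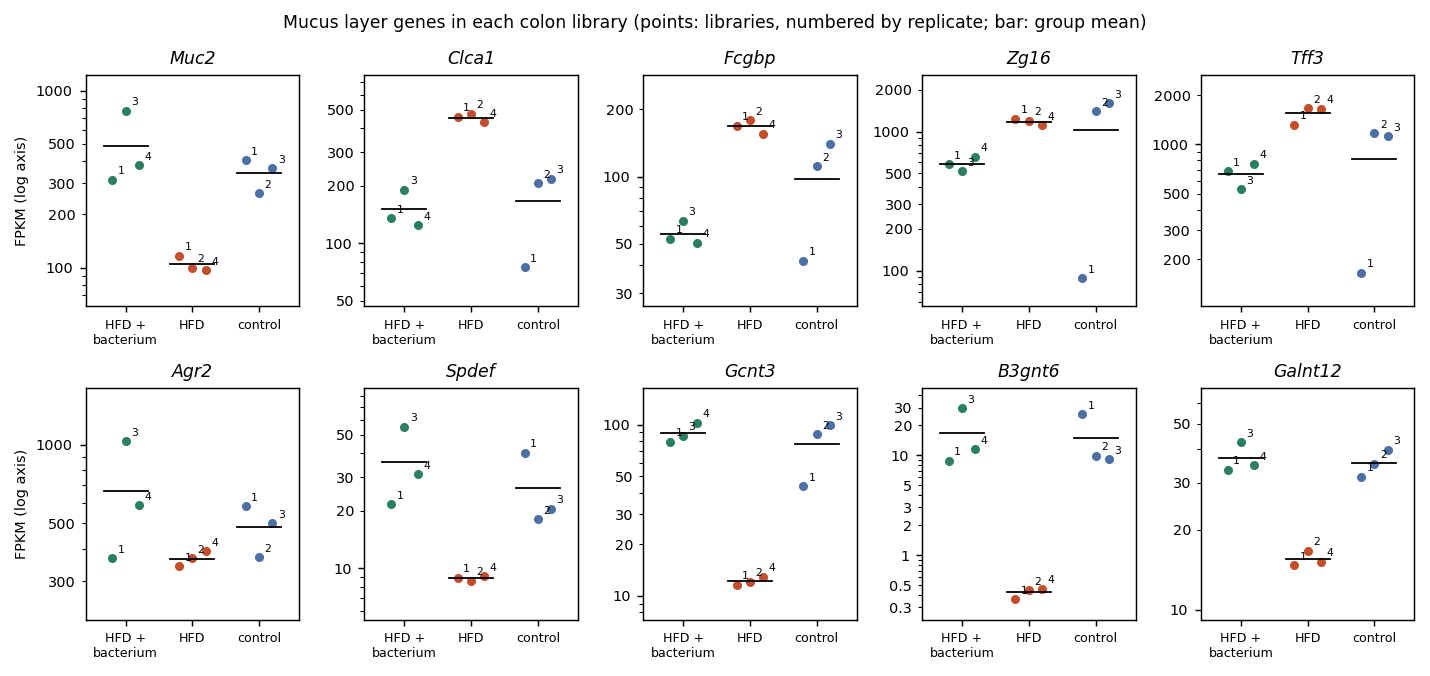
FPKM (log axis) of the 10 mucus layer genes in each library, with HFD with the bacterium, HFD and control from left to right; points are libraries numbered by replicate and bars are group means. The 3 HFD points lie below both other groups for Muc2, Spdef, Gcnt3, B3gnt6 and Galnt12, and above both for Clca1, Fcgbp and Tff3.

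Among the secreted proteins, the mucin itself was lower in HFD than in control, while none of the 4 proteins released with it was called lower. Muc2 measured 314, 770 and 380 FPKM in HFD with the bacterium, 117, 100.2 and 96.8 FPKM in HFD, against 405, 263 and 364 FPKM in control. All 3 HFD libraries were below every other library, and the highest value was bacterium replicate 3. Muc2 averaged 105 ± 10.9 FPKM in HFD and 344 ± 73.1 FPKM in control (-1.69 on the log2 scale, SE 0.32, limma adjusted p = 0.0081). It averaged 488 ± 246 FPKM in HFD with the bacterium, 4.66-fold the HFD mean (log2 difference 2.10, SE 0.32, limma adjusted p = 0.0036). Both calls held under each of the 20 alternative settings.

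Clca1, a metalloprotease that goblet cells secrete and that cleaves the Muc2 gel, ran the other way. It measured 136, 191 and 125 FPKM in HFD with the bacterium, 459.8, 478 and 429 FPKM in HFD, against 74.9, 207 and 218 FPKM in control. The HFD libraries were above all others, and control replicate 1 was the lowest of the 9. Clca1 was higher in HFD than in control by 1.59 on the log2 scale (SE 0.38, limma adjusted p = 0.020), and lower in HFD with the bacterium than in HFD by 1.62 (log2 difference -1.62, SE 0.38, limma adjusted p = 0.026). Without control replicate 1 the HFD against control difference was 1.09 and was still called. With any single HFD library left out, the limma adjusted p was 0.0632 to 0.0661 in HFD against control and 0.0734 to 0.0955 in HFD with the bacterium against HFD. In the comparison with HFD it was also 0.0861 and 0.0897 without bacterium replicate 1 or 4, and 0.0554 with no filter on low values.

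Fcgbp, a large von Willebrand domain protein bound to the Muc2 network, measured 52.8, 63.5 and 50.5 FPKM in HFD with the bacterium, 169, 179 and 156 FPKM in HFD, against 42.0, 112 and 140.2 FPKM in control. HFD lay above both other groups without overlap. The difference between HFD with the bacterium and HFD passed the test (-1.58, SE 0.38, limma adjusted p = 0.028), but it did not without any 1 HFD library or bacterium replicate 1 or 4 (limma adjusted p = 0.0751 to 0.102), nor with no filter (0.0564). Adding replicate number to the fit ended this call too. The difference between HFD and control was 0.94 (SE 0.38, limma adjusted p = 0.11). It passed under each of 4 other scalings, with log2 differences of 1.10 to 1.49 and adjusted p of 0.0017 to 0.0326, and without control replicate 3 (adjusted p = 0.0461). Without control replicate 1 the HFD against control difference was 0.42 and was not called.

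Zg16, a lectin that binds Gram-positive bacteria, and Tff3, a trefoil peptide that protects and repairs epithelium, were the most abundant of the 10. Zg16 measured 584, 517 and 661 FPKM in HFD with the bacterium, 1236, 1193 and 1108 FPKM in HFD, against 88.7, 1401 and 1606 FPKM in control. Tff3 measured 686, 533 and 761 FPKM in HFD with the bacterium, 1318, 1669 and 1649 FPKM in HFD, against 165, 1172 and 1121 FPKM in control. In both genes control replicate 1 was far below the other 8 libraries, and the bacterium libraries were below the HFD libraries without overlap. For Tff3 all 3 HFD libraries were above every other library. Neither gene was called against HFD in the fit of all 9 libraries (Zg16 -1.01, SE 0.93, limma adjusted p = 0.53; Tff3 -1.23, SE 0.66, limma adjusted p = 0.27). The SE is shared with the control libraries. Without control replicate 1 the log2 differences were the same and both genes were called lower in HFD with the bacterium (limma adjusted p = 0.0033 for Zg16 and 0.0031 for Tff3), which gives 9 called genes of 10, with 20.4% of all tested genes called in that fit. In HFD against control Zg16 differed by 1.01 (limma adjusted p = 0.48) with control replicate 1 and by -0.35 (limma adjusted p = 0.18) without it. Tff3 differed by 1.35 (limma adjusted p = 0.18) with it and by 0.42 (limma adjusted p = 0.17) without it. Under 2 of the 20 alternatives Tff3 was called higher in HFD than in control, with a limma adjusted p down to 0.015. No fit that left out 1 library alone called it (limma adjusted p of 0.112 or more).

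The 3 glycosyltransferases were called lower in HFD than in control and higher in HFD with the bacterium than in HFD, and B3gnt6 and Gcnt3 had the largest log2 differences of the 10 genes. Galnt12 is one of the enzymes that attach the first N-acetylgalactosamine to the protein, B3gnt6 extends that sugar to the core 3 structure, and Gcnt3 adds the branch that makes core 2 and core 4. B3gnt6 measured 8.87, 29.7 and 11.5 FPKM in HFD with the bacterium, 0.360, 0.447 and 0.458 FPKM in HFD, against 25.8, 9.88 and 9.14 FPKM in control. HFD was below 0.5 FPKM in each library while no other library was below 8.87 FPKM. Its mean was 0.421 ± 0.0536 FPKM in HFD and 14.9 ± 9.43 FPKM in control, with a log2 difference of -3.34 (SE 0.46, limma adjusted p = 0.0018). HFD with the bacterium stood at 16.7 ± 11.3 FPKM and 3.46 above HFD on that scale (SE 0.46, limma adjusted p = 0.0018). The added 1 FPKM compresses these values: with a pseudocount of 0.1 the log2 differences were -4.69 and 4.81.

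Gcnt3 measured 79.3, 86.2 and 102 FPKM in HFD with the bacterium, 11.6, 12.1 and 12.9 FPKM in HFD, against 43.8, 87.8 and 99.3 FPKM in control. The HFD libraries were the lowest 3 of the 9, and control replicate 1 lay between them and the rest. The log2 difference was -2.48 for HFD against control (SE 0.27, limma adjusted p = 0.00059) and 2.77 for HFD with the bacterium against HFD (SE 0.27, limma adjusted p = 0.00043). Galnt12 measured 33.6, 42.6 and 34.9 FPKM in HFD with the bacterium, 14.7, 16.7 and 15.1 FPKM in HFD, against 31.6, 35.3 and 39.9 FPKM in control. Outside HFD this gene kept within 31.6 to 42.6 FPKM, a narrower range than the other 9 genes showed. Its log2 differences were -1.15 (SE 0.14, limma adjusted p = 0.00083) and 1.20 (SE 0.14, limma adjusted p = 0.00085). The calls of all 3 enzymes held in both comparisons under each of the 20 alternatives, and with values taken relative to the pan-epithelial markers the HFD against control differences were -2.78 for B3gnt6, -1.93 for Gcnt3 and -0.59 for Galnt12.

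Of the folding enzyme and the transcription factor, only Spdef was called. Spdef drives the maturation of goblet cells and the expression of many of their secretory genes. It measured 21.7, 55.1 and 31.2 FPKM in HFD with the bacterium, 8.93, 8.63 and 9.12 FPKM in HFD, against 40.4, 18.1 and 20.5 FPKM in control. The HFD libraries were below all others and close together. Spdef fell by 1.38 on the log2 scale in HFD against control (SE 0.36, limma adjusted p = 0.028) and was 1.80 higher in HFD with the bacterium than in HFD (SE 0.36, limma adjusted p = 0.012). The HFD against control call was lost without any single HFD library (limma adjusted p = 0.0824 to 0.0849), with no filter (0.0564), with TPM scaling (0.0813), with mitochondrial and immunoglobulin genes left out (0.0664) and relative to the pan-epithelial markers (-0.83, 0.143). The call against HFD was lost without HFD replicate 1 or 2 (limma adjusted p = 0.0518 and 0.0542). Both Spdef calls were also lost with replicate number added to the fit.

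Agr2 measured 367, 1032 and 587 FPKM in HFD with the bacterium, 342, 367 and 391 FPKM in HFD, against 582, 371 and 501 FPKM in control. The groups overlapped, and bacterium replicate 3 was by far the highest. The log2 difference was -0.38 for HFD against control (SE 0.35, limma adjusted p = 0.47) and 0.73 for HFD with the bacterium against HFD (SE 0.35, limma adjusted p = 0.22). Relative to the pan-epithelial markers the first of these was 0.17, so no direction is given for it.

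**Figure D2:**
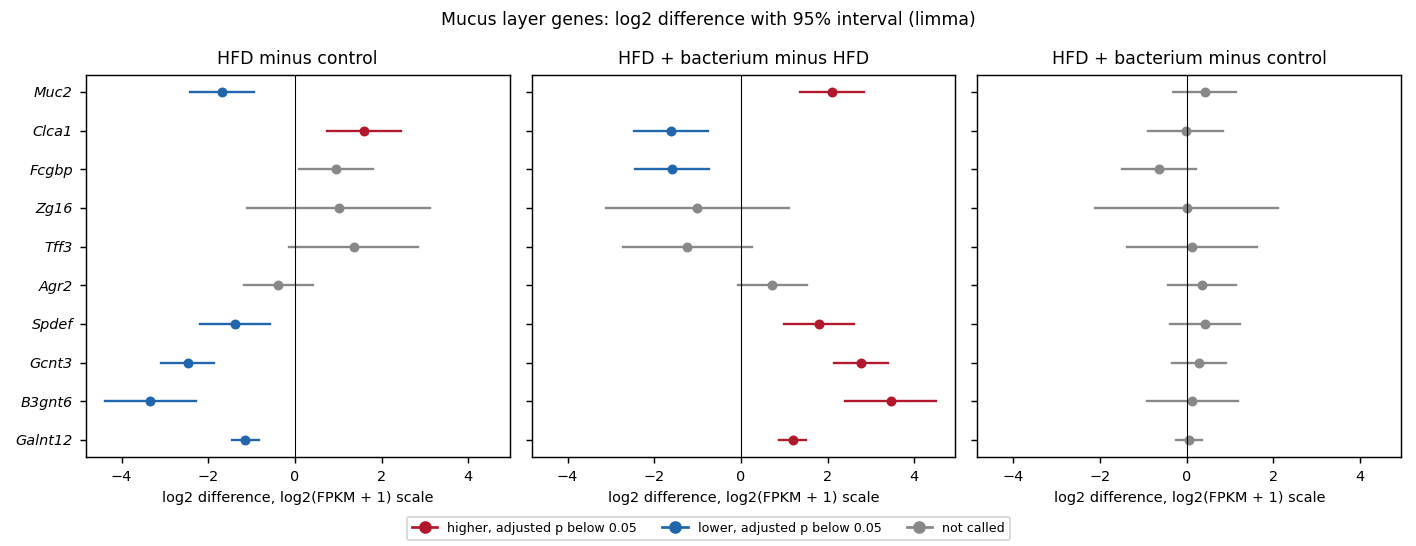
Log2 difference with its 95% interval (limma, log2(FPKM + 1) scale) for each of the 10 genes in HFD minus control, HFD with the bacterium minus HFD, and HFD with the bacterium minus control; red marks genes called higher, blue genes called lower and grey genes not called. Muc2 lies at -1.69 and 2.10 in the first pair of panels and Clca1 at 1.59 and -1.62, while no gene is called in the third panel.

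HFD with the bacterium against control asks how the bacterium group differed from the control group. None of the 10 genes was called by limma (0 of 10, and 0 at an unadjusted p below 0.05), with a background of 1.11% (0.843% lower and 0.262% higher). Adjusted p ran from 0.39 for Fcgbp to 0.999 for Zg16. These misses do not show equal levels. The narrowest 95% interval of the difference was that of Galnt12, from -0.26 to 0.36, and the widest was that of Zg16, from -2.11 to 2.11. Muc2 differed by 0.41 (95% interval -0.32 to 1.15), Gcnt3 by 0.29 (-0.33 to 0.91) and B3gnt6 by 0.12 (-0.93 to 1.17).

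This count rested on control replicate 1. Without it 6.74% of all tested genes were called, and 2 of the 10 genes were lower in HFD with the bacterium than in control: Fcgbp (-1.16, limma adjusted p = 0.017) and Zg16 (-1.36, limma adjusted p = 0.016). In an alternative chosen after the values were seen, which also left out bacterium replicate 3, Clca1 was called as well (-0.71, limma adjusted p = 0.024) and the count was 3, with a background of 12.4%. In the same alternative 6 genes were called in HFD against control and 9 in HFD with the bacterium against HFD, with backgrounds of 30.4% and 26.8%.

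The make-up of the mucus transcripts differed between HFD and control libraries whose sums overlapped. The 10 genes added up to 2283, 3321 and 2744 FPKM in HFD with the bacterium, 3678, 4024 and 3867 FPKM in HFD, against 1499, 3677 and 4120 FPKM in control. Muc2 made up 13.7%, 23.2% and 13.9% of that sum in HFD with the bacterium, 3.18%, 2.49% and 2.50% in HFD, and 27.0%, 7.14% and 8.85% in control. Its share was smaller in each HFD library than in any other library.

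The ratio of Muc2 to Clca1, which library scaling does not change, was 2.31, 4.03 and 3.05 in HFD with the bacterium, 0.255, 0.209 and 0.225 in HFD, and 5.40, 1.27 and 1.67 in control. Muc2 exceeded Clca1 in every library outside HFD, and Clca1 exceeded Muc2 in every HFD library. The ratio of Gcnt3 to B3gnt6 was 8.94, 2.90 and 8.88 in HFD with the bacterium, 32.3, 27.0 and 28.3 in HFD, and 1.70, 8.89 and 10.9 in control. The core 3 enzyme was thus further below the branching enzyme in HFD than in either other group. The HFD ratios divide by B3gnt6 values of 0.360 to 0.458 FPKM, near the floor and below the filter level of 0.5 FPKM, so their size is uncertain.

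**Figure D3:**
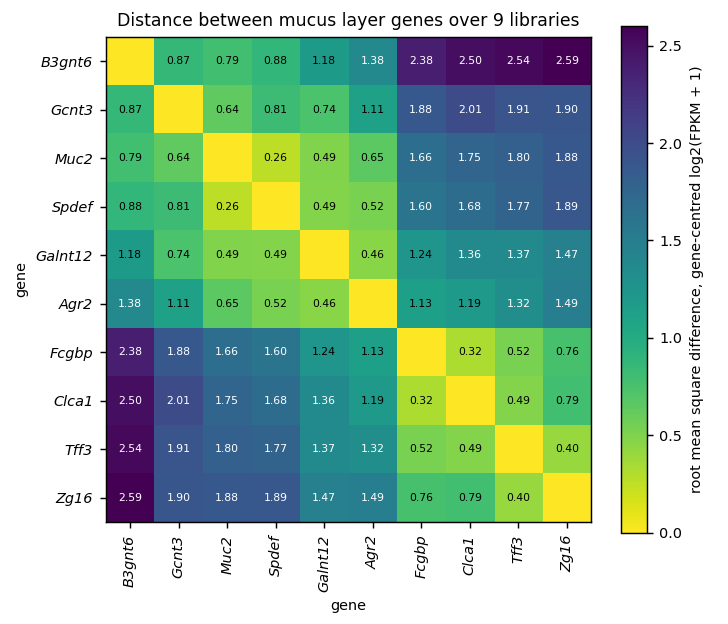
Root mean square difference of gene-centred log2(FPKM + 1) over 9 libraries for each pair of the 10 genes, on a colour scale in log2 units from yellow (similar) to dark (different). B3gnt6, Gcnt3, Muc2, Spdef, Galnt12 and Agr2 form a block apart from Fcgbp, Clca1, Tff3 and Zg16, and the values run from 0.255 for Muc2 with Spdef to 2.59 for B3gnt6 with Zg16.

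The profiles of the 10 genes over the 9 libraries were compared by the root mean square difference of their centred log2 values, where 0 means the same profile. Muc2 and Spdef were the closest pair at 0.255, followed by Clca1 with Fcgbp at 0.315, Zg16 with Tff3 at 0.402 and Agr2 with Galnt12 at 0.462. Muc2 and Clca1 lay 1.75 apart. These values describe libraries that share group differences and scaling, and carry no test.

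Of 4854 tested genes with a mean of at least 10 FPKM, the 10 genes themselves left out, the most Muc2-like profiles over the 9 libraries were those of Cgref1 (0.422), Slc12a8 (0.436), 5330417C22Rik (0.459), Slc17a9 (0.462) and Prnp (0.467). Cgref1, a calcium-binding EF-hand protein, measured 27.8, 48.8 and 44.1 FPKM in HFD with the bacterium, 6.81, 6.61 and 7.30 FPKM in HFD, against 41.6, 41.1 and 46.1 FPKM in control. Prnp, the prion protein gene, measured 138, 124 and 131 FPKM in HFD with the bacterium, 46.4, 45.4 and 46.0 FPKM in HFD, against 165, 125 and 112 FPKM in control. In both genes all 3 HFD libraries were below the other 6.

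Replicates differed more outside HFD than within it. Of the 3 groups, HFD had the smallest SD on the log2 scale for 10 of the 10 genes, against 55.8% of all tested genes. Bacterium replicate 3 held the highest value of its group for Muc2, Agr2, Spdef and B3gnt6, and control replicate 1 held the highest of its group for the same 4 genes. Control replicate 1 also held the lowest of its group for Clca1, Fcgbp, Zg16, Tff3, Gcnt3 and Galnt12. For Clca1, Fcgbp and Galnt12 among these, bacterium replicate 3 was again the highest of its group.

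Among 26 other goblet cell genes, of which 23 were tested, HFD against control gave 3 that were lower and 4 that were higher (median log2 difference -0.02, background 19.7%). In HFD with the bacterium against HFD 4 were higher and 3 lower (median -0.003, background 12.1%). Without any single HFD library the first count was 4 genes in place of 7. Guca2a, the precursor of the peptide guanylin that drives fluid secretion, measured 4526, 3254 and 4048 FPKM in HFD with the bacterium, 265, 289 and 358 FPKM in HFD, against 3059, 4662 and 4041 FPKM in control. It was lower in every HFD library than in any other (HFD against control -3.68, limma adjusted p = 6.9e-05). Retnlb, an antibacterial protein of goblet cells, measured 182, 527 and 69.8 FPKM in HFD with the bacterium, 12.03, 28.3 and 5.33 FPKM in HFD, against 1469, 203 and 274 FPKM in control. It was lower in HFD than in control (-5.02, limma adjusted p = 0.0072) and higher in HFD with the bacterium than in HFD (3.82, limma adjusted p = 0.031). The second call was lost without HFD replicate 1 or 4, bacterium replicate 1 or 3, or with no filter (highest limma adjusted p over the alternatives 0.11).

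Other goblet cell genes went the opposite way. Sval1 stood at 813 ± 191 FPKM in HFD against 7.90 ± 6.99 FPKM in control, and at 6.84 ± 3.73 FPKM in HFD with the bacterium. Rep15, a Rab15 effector of secretory cells, measured 13.5, 15.2 and 14.4 FPKM in HFD with the bacterium, 30.4, 27.5 and 36.5 FPKM in HFD, against 8.17, 9.17 and 14.7 FPKM in control. It was higher in HFD than in control (1.51, limma adjusted p = 0.0015) and lower in HFD with the bacterium than in HFD (-1.07, limma adjusted p = 0.0098). The antimicrobial Ang4 was not called (limma adjusted p = 0.37 for HFD against control and 0.30 for HFD with the bacterium against HFD).

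Of 20 genes listed as regulators of the goblet lineage, the HFD group had 1 lower and 5 higher than the control (median 0.30, background 19.7%). The list holds genes that oppose this fate too, such as Notch1 and Hes1, so its counts give no direction for the lineage. In HFD with the bacterium against HFD 2 were higher and 2 lower (median -0.30, background 12.1%). The first count was 3 in place of 6 without any single HFD library or control replicate 3. Of the 5 higher genes, Spib, which B cells express too, had the smallest p (1.86, limma adjusted p = 0.00032). It measured 3.89, 2.66 and 2.06 FPKM in HFD with the bacterium, 11.9, 12.4 and 10.3 FPKM in HFD, against 2.93, 2.14 and 2.33 FPKM in control. Atoh1, the factor that commits progenitors to the secretory lineage, measured 15.6, 21.9 and 22.4 FPKM in HFD with the bacterium, 21.5, 17.7 and 22.5 FPKM in HFD, against 18.6, 13.9 and 24.3 FPKM in control. The 3 groups overlapped, and it was not called (HFD against control 0.14, 95% interval -0.35 to 0.63, limma adjusted p = 0.68). Cdx2, the intestinal homeodomain factor, measured 72.0, 80.3 and 54.3 FPKM in HFD with the bacterium, 8.18, 6.66 and 9.45 FPKM in HFD, against 73.2, 121 and 141 FPKM in control. It was the regulator with the smallest p in both comparisons (-3.59, limma adjusted p = 7.9e-05, and 2.93, limma adjusted p = 0.00023).

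Foxa2, a forkhead factor of secretory cells, measured 2.69, 3.75 and 3.63 FPKM in HFD with the bacterium, 16.4, 14.2 and 19.4 FPKM in HFD, against 6.998, 3.31 and 3.90 FPKM in control. It was higher in HFD than in control (1.67, limma adjusted p = 0.0019) and lower in HFD with the bacterium than in HFD (-2.02, limma adjusted p = 0.00091). Foxa3 was not called in either (limma adjusted p = 0.29 and 0.82). Klf4, a factor of goblet cell differentiation, was called in HFD with the bacterium against control, where it averaged 84.5 ± 19.96 FPKM and 197 ± 27.2 FPKM (-1.23, limma adjusted p = 0.037). That call held under 8 of 20 alternatives, with limma adjusted p up to 0.258. Its differences were -0.62 in HFD against control (limma adjusted p = 0.06) and -0.61 in HFD with the bacterium against HFD (limma adjusted p = 0.089). The first of these was called in 4 of the 20 alternatives, among them without control replicate 1 (-0.73, limma adjusted p = 0.0356), and the second in 3.

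Beyond Gcnt3, B3gnt6 and Galnt12, a further 44 glycosylation genes were listed for mucin O-glycosylation and 38 tested. Not all are specific to it: Fut8 and St6gal1, counted below, act mainly on N-linked chains. In HFD against control 5 were lower and 7 higher (median -0.05, background 19.7%). In HFD with the bacterium against HFD 5 were higher and 7 lower (median 0.05, background 12.1%). The second count, 12 genes, was 7 without any single HFD library and 20 without control replicate 1 and bacterium replicate 3 together. Galnt6, B4galt4, A4gnt, Fut2 and St3gal1 were lower in HFD and higher in HFD with the bacterium. A4gnt, which caps chains with alpha-linked N-acetylglucosamine, measured 7.19, 15.997 and 6.75 FPKM in HFD with the bacterium, 0.909, 0.728 and 0.704 FPKM in HFD, against 8.23, 6.34 and 7.81 FPKM in control. Fut2, the fucosyltransferase that makes the H antigen on mucins, measured 40.9, 37.6 and 34.6 FPKM in HFD with the bacterium, 14.3, 16.5 and 18.9 FPKM in HFD, against 29.3, 26.5 and 37.7 FPKM in control. Both genes had all HFD libraries at the bottom. The call of Galnt6 in HFD with the bacterium against HFD (0.48, limma adjusted p = 0.026) held under 11 of the 20 alternatives and was lost without any 1 HFD or bacterium library, with limma adjusted p up to 0.237. Relative to the pan-epithelial markers, neither Galnt6 nor Fut2 was called in HFD against control (limma adjusted p = 0.158 and 0.22).

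On the other side, B3gnt7, which extends chains that carry sulfated sugars, measured 1.59, 10.95 and 1.42 FPKM in HFD with the bacterium, 120, 108 and 144 FPKM in HFD, against 20.5, 1.96 and 1.996 FPKM in control. It was higher in HFD than in control (4.43, limma adjusted p = 0.0073) and lower in HFD with the bacterium than in HFD (-4.88, limma adjusted p = 0.0059). Fut4, Fut8, B4galnt3, St3gal6 and St6galnac4 were likewise higher in HFD and lower in HFD with the bacterium, while St6gal1 passed only in the first comparison and B4galt1 only in the second. The enzymes of the core 1 route, C1galt1 and its chaperone C1galt1c1, and the core 2 enzyme Gcnt1 were not called. C1galt1 averaged 40.4 ± 11.9 FPKM in HFD with the bacterium, 34.4 ± 4.56 FPKM in HFD and 32.6 ± 4.36 FPKM in control. In HFD with the bacterium against control limma called 0 of the 38 genes (background 1.11%), with 7 at an unadjusted p below 0.05.

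**Figure D4:**
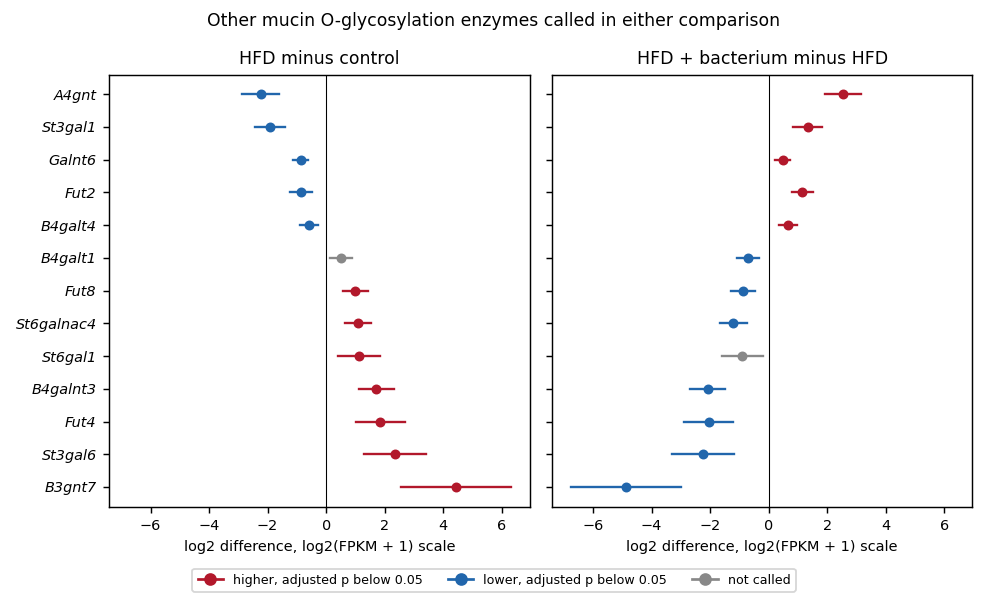
Log2 difference with its 95% interval (limma, log2(FPKM + 1) scale) of the other listed glycosylation genes called in either comparison, for HFD minus control and HFD with the bacterium minus HFD; red marks genes called higher, blue genes called lower and grey genes not called. A4gnt lies at -2.24 and 2.53 and B3gnt7 at 4.43 and -4.88; the 2 panels share the HFD libraries.

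Genes that process the secreted gel or supply its ions were called in both directions, with 4 of 15 lower and 4 higher in HFD against control (median 0.28, background 19.7%). In HFD with the bacterium against HFD 4 were higher and 4 lower (median -0.37, background 12.1%). Meprin beta, encoded by Mep1b, detaches the mucus by cleaving Muc2. It measured 113, 75.5 and 64.4 FPKM in HFD with the bacterium, 38.5, 28.7 and 29.6 FPKM in HFD, against 63.6, 136 and 90.8 FPKM in control, with the HFD libraries lowest. Its log2 difference was -1.50 in HFD against control (limma adjusted p = 0.0095) and 1.33 in HFD with the bacterium against HFD (limma adjusted p = 0.021). The second call was lost without HFD replicate 2 or 4 or bacterium replicate 1 (limma adjusted p = 0.0735 to 0.09). Both Mep1b calls were lost with replicate number added to the fit (limma adjusted p = 0.0588 and 0.0737). Tgm3, a transglutaminase that cross-links proteins and can act on Muc2, measured 2.84, 4.72 and 0.0550 FPKM in HFD with the bacterium, 425, 293 and 378 FPKM in HFD, against 16.9, 0.622 and 0.288 FPKM in control. Best2, a bicarbonate-conducting channel of colonic goblet cells, measured 0.323, 0.650 and 0.590 FPKM in HFD with the bacterium, 18.9, 19.5 and 17.7 FPKM in HFD, against 0.610, 1.70 and 1.34 FPKM in control. Both were high in every HFD library, with log2 differences of 6.76 and 3.19 against control (limma adjusted p = 0.0021 and 4.1e-05).

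Of the transmembrane mucins, 4 of 9 were tested. Muc13 and Muc3 were not called with all 9 libraries and the values as deposited. Muc3a was lower (-2.50, limma adjusted p = 0.00037) and Muc1 higher (1.93, limma adjusted p = 0.0021) in HFD than in control, with 2.37 and -1.93 in HFD with the bacterium against HFD. Without control replicate 1, Muc13 was called lower in HFD with the bacterium than in HFD (-0.60, limma adjusted p = 0.0367). With TPM scaling of all 9 libraries it was called lower there too (-0.8, limma adjusted p = 0.0187). Relative to the pan-epithelial markers Muc13 was called higher in HFD than in control (0.62, limma adjusted p = 0.0266). Muc3 and Muc3a are related in sequence, so the division of reads between them is uncertain. In the same libraries 30 genes of the protein-folding and granule machinery were tested. HFD against control had 1 lower and 2 higher (median 0.23, background 19.7%). Limma called 0 in HFD with the bacterium against HFD (background 12.1%), with 4 at an unadjusted p below 0.05. These counts move with the setting, from 0 without HFD replicate 1 or 4 to 19 relative to the pan-epithelial markers in the first comparison, and to 5 without bacterium replicate 3 in the second. Xbp1, the transcription factor of the unfolded protein response, averaged 67.7 ± 19.4 FPKM in HFD with the bacterium, 84.9 ± 4.64 FPKM in HFD and 59.5 ± 3.71 FPKM in control. Ern2, the stress sensor of goblet cells, averaged 20.5 ± 5.62 FPKM, 13.7 ± 1.69 FPKM and 17.1 ± 4.33 FPKM in the same groups, and neither gene was called.

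Of 13 tested cytokine and receptor genes with known actions on goblet cells, HFD against control had 4 higher and 1 lower (median 0.21, background 19.7%). In HFD with the bacterium against HFD 2 were lower (median -0.28, background 12.1%). Both counts include Il13ra2, which passed the filter on low values through the HFD libraries alone. The first count was 2 without any single HFD library and 3 without control replicate 2. Il18, an epithelial cytokine, measured 13.1, 11.9 and 10.4 FPKM in HFD with the bacterium, 83.8, 67.9 and 90.2 FPKM in HFD, against 17.5, 14.7 and 19.7 FPKM in control. It was high in every HFD library (2.16, limma adjusted p = 8.5e-05 against control). Il13ra2, the decoy receptor of interleukin-13, stood at 0.158 to 0.299 FPKM in HFD with the bacterium and at 1.47 to 1.82 FPKM in HFD, against 0.0773 to 0.202 FPKM in control.

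Markers of other cells and of position along the gut differed between the same groups. All 8 B cell markers were called higher in HFD than in control (background for higher 10.6%) and lower in HFD with the bacterium than in HFD (background for lower 7.6%). Of these, Cr2 and Ms4a1 would not have passed the filter without the HFD libraries. Their summed levels were 201 to 413 FPKM in HFD with the bacterium, 901 to 1142 FPKM in HFD and 110 to 190 FPKM in control. Posterior Hox genes, which mark distal position, summed to 27.0 to 34.8 FPKM in HFD with the bacterium, 284 to 305 FPKM in HFD and 12.2 to 73.6 FPKM in control. Hoxb13 and Hoxd13 were the most abundant of them in HFD. Hoxa11 went the other way, at 1.65 to 1.97 FPKM in HFD and 2.28 FPKM or more in every other library. Of the 9 that passed the filter, Hoxb13, Hoxd12, Hoxd13 and Evx2 did so only with the HFD libraries, so no count of calls is given. The 7 anterior Hoxb genes had sums of 62.8 to 100.2 FPKM in HFD with the bacterium, 4.64 to 5.51 FPKM in HFD and 25.6 to 131 FPKM in control, and 3 of them were below 0.5 FPKM in each HFD library. Control replicate 1 held both the highest posterior sum of the control group, 73.6 FPKM, and its lowest anterior sum, 25.6 FPKM. Hoxd13 measured 72.6 to 94.3 FPKM in HFD and at most 0.45 FPKM in any other library. The part of tissue position or immune cell content in the mucus gene differences was not tested, and the groups and these markers cannot be told apart in this design.

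Of 10 absorptive colonocyte markers, 5 were lower in HFD than in control (background 19.7%, also for the lists below). In HFD with the bacterium against HFD 4 were higher and 2 lower (background 12.1%). Fabp2, a fatty acid-binding protein of absorptive cells, averaged 1302 ± 374 FPKM in HFD with the bacterium, 23.3 ± 6.24 FPKM in HFD and 1702 ± 876 FPKM in control. It was the marker of this list with the smallest p in HFD against control. The 2 called lower with the bacterium were Slc26a3 and Saa1. In HFD they measured 95.9, 82.3 and 114 FPKM and 265, 273 and 245 FPKM. In control they measured 93.4, 52.6 and 73.9 FPKM and 335, 117 and 156 FPKM. Of 12 pan-epithelial markers, Krt20 and Vil1 were lower in HFD than in control. Of the other secretory and sensory cells, 1 of 8 enteroendocrine markers was lower and 1 higher in HFD against control, with 1 in each direction also in HFD with the bacterium against HFD. Of 8 tuft markers, Sh2d6 and Avil were lower and Ptprc and Fyb, which leukocytes express too, were higher in HFD against control, and 4 were higher and 2 lower in HFD with the bacterium than in HFD. Limma called 0 of the 8 smooth muscle markers in each of the 3 comparisons, and 0 were at an unadjusted p below 0.05. These misses do not show equal levels, because the shared spread includes control replicate 1, where the markers summed to 6781 FPKM. Their sums were 1742 to 3135 FPKM in HFD with the bacterium and 1288 to 1448 FPKM in HFD, without overlap.

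**Figure D5:**
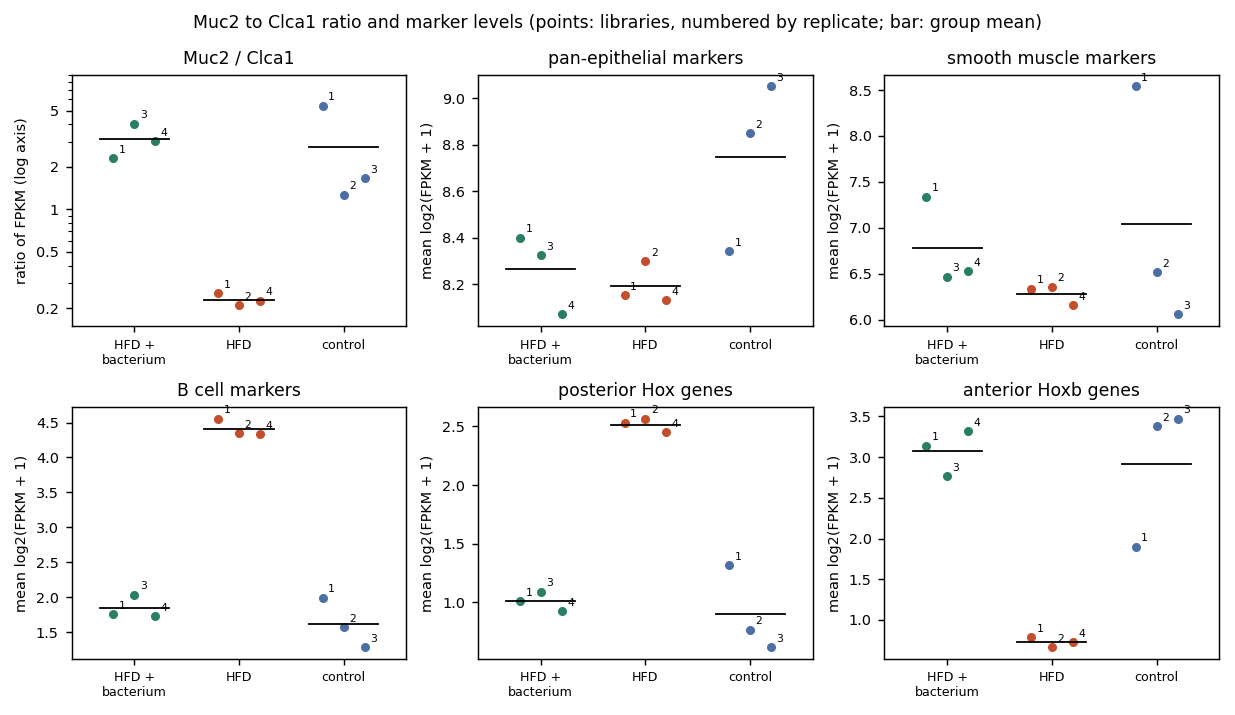
Ratio of Muc2 to Clca1 (FPKM ratio, log axis) and mean log2(FPKM + 1) of 5 marker lists in each library, with HFD with the bacterium, HFD and control from left to right; points are libraries numbered by replicate and bars are group means. The ratio lies between 0.209 and 0.255 in HFD and between 1.27 and 5.40 elsewhere, and B cell and posterior Hox levels are highest in HFD while anterior Hoxb levels are lowest.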

How the data were processed

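RNA of 9 colon libraries in 3 groups of 3 was compared. The authors deposited 1 table of FPKM values with 54491 rows, of which 22310 were 0 in every library. HISAT2 2.0.5 and the build GRCm39 are named in the submitters' processing notes. Neither the counter nor the annotation is given in the sources used here. Identifiers were matched to symbols through GENCODE M21, for 52093 of 54491. Groups came from the treatment labels. The members and gene lists were chosen with earlier results of these data known, and some lists came from an earlier session on them.

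The fit, limma 3.58.1 under R 4.3.3 with a variance trend, used log2(FPKM + 1) of the 17907 genes that reached 0.5 FPKM in 3 or more libraries, and all 9 libraries entered 1 fit, so the spread is pooled over the 3 groups. P-values were adjusted by Benjamini-Hochberg within each of 3 comparisons. The scale understates changes of low genes. The fit was tested on simulated data with 1 spread per gene shared by all 3 groups. That cannot show how it behaves where the spread differs between groups, as it did here. Relative depth was read from values under 0.3 FPKM: set against control replicate 1, 93.6% to 94.8% of them were whole-number ratios (numbers up to 20, natural log tolerance 0.0005), with relative depths of 0.822 to 1.103. Pairs of libraries shared 0 identical values above 0, and within groups the correlation was 0.928 to 0.978.

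Named genes were the 10 members, up to 3 called genes of each list in each direction by smallest p, a fixed set of goblet, mucin and glycosylation genes, and the 5 genes most like Muc2. B4galt1, B4galt4, Fut4, St3gal6, St6gal1, Mptx1, Reg4, Defa24 and Defa30 were named after their values were seen. Muc4, Muc6, Muc17 and St6galnac2 were not analysed here. Alternatives were 4 other scalings, a pseudocount of 0.1, no filter, a filter at 1 FPKM, limma without trend, the 6 libraries of a comparison, a replicate block, each library left out, and 1 pair left out that was chosen after seeing the data.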

Additional observations from a re-analysis of the deposited data

How the results depend on the processing

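Muc2, Gcnt3, B3gnt6 and Galnt12 kept their calls in HFD against control and in HFD with the bacterium against HFD under each of 20 alternatives. The number of the 10 genes called ranged from 4 to 7 in HFD against control, from 4 to 9 in HFD with the bacterium against HFD, and from 0 to 2 in HFD with the bacterium against control when each library was left out in turn. The 2 arose without control replicate 1, and leaving out bacterium replicate 3 as well, a choice made after seeing the data, gave 3. The lower counts of HFD with the bacterium against HFD, 4 genes, arose without HFD replicate 1 or 2, where 5.67% and 5.72% of all tested genes were called. Fewer samples entered those fits. Over the fits with each library left out, the share of all tested genes called moved too. It ranged from 9.21% to 25.7% in HFD against control, 5.67% to 20.4% in HFD with the bacterium against HFD, and 0% to 6.74% in HFD with the bacterium against control. With other scalings the median log2 difference of all genes in HFD against control, -0.00107 as reported, was 0.202 (TPM), 0.17 (mitochondrial and immunoglobulin genes left out) and 0.552 (relative to pan-epithelial markers, where 94.2% of calls were higher in HFD, and 76.9% with mitochondrial and immunoglobulin genes left out, in place of 53.8%). In HFD with the bacterium against HFD it was -0.169 with TPM, in place of -0.0138. In HFD with the bacterium against control the medians were 0.137 and 0.473 in the last pair of scalings, in place of -0.00988, and the number of all genes called was 198 as reported, 46 with quantile normalization, 22 with TPM (45.5% higher, in place of 23.7%), 378 without mitochondrial and immunoglobulin genes (76.7%) and 946 relative to the pan-epithelial markers (96.3%). With each library left out in turn that number ranged from 0 to 1187: it was 0 without control replicate 2 or 3, HFD replicate 1 or bacterium replicate 1 or 4, when 2608 to 3320 genes had an unadjusted p below 0.05, and 1187 without control replicate 1.

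Directions that reversed belonged to differences that were not called. Agr2 in HFD against control was 0.172 relative to the pan-epithelial markers, and Zg16 was -0.349 without control replicate 1, alone or with bacterium replicate 3. In HFD with the bacterium against control, Clca1 was 0.258, 0.0484, 0.199 and 0.459 and Zg16 0.301, 0.0685, 0.22 and 0.479 with quantile normalization, TPM, mitochondrial and immunoglobulin genes left out, and relative to the pan-epithelial markers. Without control replicate 1 and bacterium replicate 3, Clca1 was -0.705, Tff3 -0.664, Gcnt3 -0.0503 and Galnt12 -0.129. With each library left out in turn, these differences ranged from -0.521 to 0.244 for Clca1, -1.36 to 0.723 for Zg16, -0.81 to 0.601 for Tff3, -0.039 to 0.706 for Agr2, -0.0716 to 0.51 for Gcnt3, -0.367 to 0.572 for B3gnt6 and -0.0495 to 0.136 for Galnt12, and the leave-one-out range of Zg16 in HFD against control was -0.349 to 1.73. The cause was not tested.

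Same-numbered libraries of different groups had correlations of their deviations from -0.156 to 0.187, against -0.168 to 0.155 for differently numbered ones. With 3 libraries a group these values cannot decide whether replicate numbers pair the libraries. With the replicate block, 5 genes were called in HFD against control (background 11.1%) and 5 in HFD with the bacterium against HFD (background 7.19%). The count was 0 in HFD with the bacterium against control, where Clca1 was 0.149 and Zg16 0.234 and limma called 0 of all genes (2401 at an unadjusted p below 0.05). The block ended the calls of Spdef in both comparisons with HFD (-1.28 and 1.62, limma adjusted p = 0.122 and 0.0933), of Fcgbp in HFD with the bacterium against HFD (-1.67, 0.0515), of Mep1b in both (0.0588 and 0.0737) and of Galnt6 in HFD with the bacterium against HFD (0.0856). Total depth is unknown, and 3 libraries a group limit what could be detected.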
